A study of Mus musculus with 6 samples.

Results

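The data described here are 4 sequences of the small RNA of mouse prefrontal cortex: mmu-miR-320-3p, mmu-miR-484, and the arms mmu-miR-877-5p and mmu-miR-877-3p, written below without the mouse prefix. They were chosen by name, as miRNAs made without the nuclear enzyme Drosha, and all 4 names were found among the 1013 distinct sequences of the table, each on a single entry. All 4 passed the filter on low values (10 reads or more in 3 or more of 6 libraries) and were among the 639 sequences tested. The cortex came from male C57BL/6 mice, an inbred strain, at an age of 30 weeks. Control mice received water (0 mg per kg) by gavage once a day for 6 months, and treated mice received nano-polystyrene particles (PS-NP, plastic particles of nanometre size) at 50 mg per kg body weight by the same route. Each group had 3 libraries. The labels do not state whether a library is 1 animal or a pool, so p-values measure the spread between libraries, which may be technical.

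Most miRNAs are cut from a long transcript by the Microprocessor, made of Drosha and DGCR8, and then by Dicer. A mirtron skips the first step: a short intron is spliced out, opened by the debranching enzyme and folds into a hairpin that Dicer can cut, so its ends are splice sites. The precursors of miR-320 and miR-484 also escape Drosha, as hairpins transcribed directly from a start site, and that of miR-320 is known to carry the cap of a nascent transcript. The values below describe the levels of these miRNAs, which depend on Dicer but not on the Microprocessor, beside the rest of the library. They do not test a step of processing. No mRNA or enzyme level was measured in these libraries.

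The sequences are shown first because the ends of the miR-877 arms can be set beside the ends of an intron. For miR-320-3p and miR-484 the route is background and was not read from the sequences. The deposited table gives the following, 5′ to 3′, with the seed (bases 2 to 8) in capitals.
miR-320-3p: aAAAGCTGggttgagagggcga
miR-484: tCAGGCTCagtcccctcccgat
miR-877-5p: gTAGAGGAgatggcgcaggggaca
miR-877-3p: tCCTCTTCtccctcctcccagt
The 4 seeds differ from each other. miR-484 and miR-320-3p carry no end suffix in the table, while miR-877-5p is marked R+4 (4 bases longer at the 3′ end than the reference) and miR-877-3p is marked L-2R+2 (2 bases shorter at the 5′ end and 2 longer at the 3′ end). RefSeq (GRCm38.p6) lists the reference arms of miR-877 as follows, with bases 2 to 8 again in capitals.
RefSeq miR-877-5p: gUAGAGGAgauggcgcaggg
RefSeq miR-877-3p: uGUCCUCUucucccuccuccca
The 5p arm keeps its start and therefore its seed, and grows from 20 to 24 bases. The 3p arm keeps a length of 22 bases but starts 2 bases later, so the seed of the sequence counted in cortex is not the reference seed.

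The hairpin of miR-877 is the whole of a short intron. Its 85 bases (chr17:35960730-35960814, minus strand, GRCm38) begin and end at the same bases as the intron between exons 12 and 13 of a transcript of Abcf1 with 23 exons in GENCODE M21. Abcf1 encodes an ATP-binding protein that takes part in the start of translation. In the RefSeq hairpin below, capitals mark the stretches matched by the deposited 5p and 3p sequences.
Mir877 hairpin: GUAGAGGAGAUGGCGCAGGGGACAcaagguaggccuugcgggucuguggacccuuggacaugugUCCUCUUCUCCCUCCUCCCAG
The deposited 5p sequence starts at the first base of the intron and matches it over all 24 bases. The deposited 3p sequence covers bases 65 to 85 and reaches the last base of the intron, 1 base further than the RefSeq arm. Its final base lies past the splice site and matches neither the intron nor the start of exon 13: counted from 1 at the 5′ end of the arm, it is G22T against the genomic sequence. The 3p arm of miR-1224, a mirtron that likewise fills an intron of 85 bases, between exons 22 and 23 of a Vwa5b2 transcript (chr16:20604452-20604536, plus strand), ends with the same change, G22T.

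**Figure D1:**
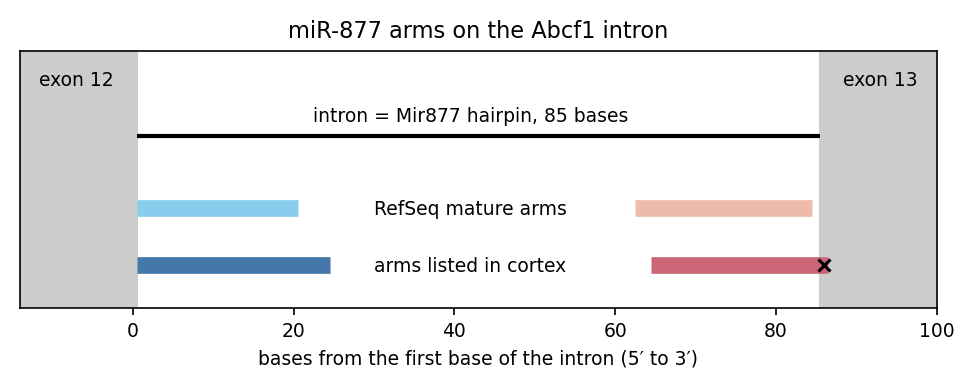
Map of the Abcf1 intron that makes miR-877, with position in bases from the first base of the intron on the x axis. Pale bars are the RefSeq arms, dark bars the arms listed in cortex, and the cross marks the last base of the listed 3p arm, which lies past the intron and does not match exon 13.

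The other hairpins lie outside coding introns on their own strand. Mir320 (chr14:70443510-70443591, plus strand, 82 bases) stands 62 bases from the annotated 5′ end of Polr3d, a subunit gene of RNA polymerase III on the minus strand, so that the pair points away from each other. Mir484 (chr16:14159626-14159692, plus strand, 67 bases) lies within the span of Marf1 on the minus strand and 3582 bases before Nde1, a gene of neuronal progenitor division, on its own strand. The last 19 bases of the Mir484 hairpin overlap exon 2 of a Marf1 transcript on the opposite strand, and 0 bases of the mature arm do.

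Library totals, the reads assigned to the listed sequences, ran from 6170649 to 9905745. Values below are CPM, reads of a sequence relative to the total of its library. Library sizes were scaled by TMM, a method that aligns the bulk of miRNAs between libraries. Markers of cortex neurons (miR-124-3p, miR-128-3p and miR-9-5p, 3 of 3 listed) summed to between 175484 and 186255 CPM in controls and between 149283 and 205564 CPM in treated cortex, whereas the liver miRNA miR-122-5p reached at most 8.25 CPM. Erythroid miRNAs (4 of 5 names found) summed to 777.9 to 1092 CPM among controls and 622 to 1075 CPM in treated cortex. Entries of the same sequence were kept under a single mouse name. A name not found, here miR-486a-5p, may therefore have been merged under another name. Most of this sum was the sequence kept under the name miR-486b-5p, at 731 to 1043 CPM in controls and 564 to 1004 CPM in treated cortex. miR-451a had only 37.1 to 91.9 CPM in controls and 48.8 to 71.7 CPM in treated cortex. miR-144-3p and miR-144-5p, which define red cell precursors, were each listed at 0 in 5 of the 6 libraries. Leukocyte and microglial miRNAs (2 of 3 names listed, miR-142a-5p and miR-223-3p) summed to 16.1 to 22.4 CPM in controls and 24.4 to 27.7 CPM in treated cortex. The sums did not overlap, as was so for 9.55% of all tested sequences, but each miRNA alone did. miR-142a-5p had 7.05 to 11.3 CPM in controls and 8.55 to 19.6 CPM in treated cortex. For miR-223-3p the values were 6.93 to 11.1 and 8.15 to 16.7 CPM. The part of such cells in the differences below was not tested.

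The 4 sequences stood in the same order in every library. miR-484 was the most abundant, with a rank of 45 to 60 among the 1013 sequences of a library, followed by miR-320-3p at rank 83 to 101, miR-877-3p at 168 to 215 and miR-877-5p at 360 to 413. No library of one overlapped any library of the next in this order. Together they held 0.256% to 0.344% of the reads assigned to listed sequences in a library. These levels are reads per sequence, and differences in ligation between sequences, which were not measured here, enter the order as well.

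miR-484, reported in heart muscle cells to repress the mitochondrial fission gene Fis1, counted 22489, 11932 and 13099 reads in the controls and 15528, 13889 and 17325 with PS-NP. That is 2601, 1745 and 2112 CPM in controls and 2329, 1546 and 1569 CPM in treated cortex. The first PS-NP library lay inside the control range and the others below all controls, so the groups overlapped. Group means were 2153 ± 429 and 1815 ± 446 CPM (SD, n = 3 each), and treated cortex held 0.843 times the control level. The log2 difference was −0.25 (SE 0.22, 95% interval −0.75 to 0.26) and did not pass the edgeR quasi-likelihood test (unadjusted p = 0.298, adjusted p = 0.906 over the 639 sequences).

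miR-320-3p, the arm that the capped precursor is known to deliver, counted 8040, 6595 and 4792 reads in controls and 4863, 8383 and 6634 with PS-NP. Scaled, this came to 930, 964 and 773 CPM for the controls and 729, 933 and 601 CPM for treated cortex. Treated libraries 1 and 3 lay below every control, and treated library 2 reached above control library 1. The means were 889 ± 102 and 754 ± 168 CPM (SD, n = 3 each), a ratio of 0.849. The log2 difference of −0.24 (SE 0.20, 95% interval −0.69 to 0.22) missed the threshold of the same edgeR test (unadjusted p = 0.269, adjusted p = 0.906).

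miR-877-3p, by far the larger product of the Abcf1 intron, counted 1789, 1323 and 940 reads in controls and 1205, 1266 and 1267 with PS-NP. Scaled values were 207, 193 and 152 CPM among controls and 181, 141 and 115 CPM in treated cortex. The first treated library again lay among the controls, and the other treated libraries lay below them. With means of 184 ± 28.8 and 145 ± 33.3 CPM (SD, n = 3 each), treated cortex held 0.790 times the control level. This was the largest log2 difference of the 4 in size, −0.34 (SE 0.22, 95% interval −0.85 to 0.17), and it too missed the threshold (edgeR, unadjusted p = 0.162, adjusted p = 0.906).

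miR-877-5p counted 142, 143 and 83 reads in controls and 66, 172 and 151 with PS-NP, the lowest depth of the 4. Its scaled values were 16.4, 20.9 and 13.4 CPM among controls and 9.90, 19.1 and 13.7 CPM in treated cortex. Its lowest value was in treated library 1, where miR-484 and miR-877-3p had their highest treated value, and its other treated values lay inside the control range. The means were 16.9 ± 3.79 and 14.2 ± 4.65 CPM (SD, n = 3 each). The log2 difference was −0.25 with the widest interval of the 4 (SE 0.31, 95% interval −0.95 to 0.46), and the edgeR test gave an unadjusted p of 0.448 and an adjusted p of 0.906.

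**Figure D2:**
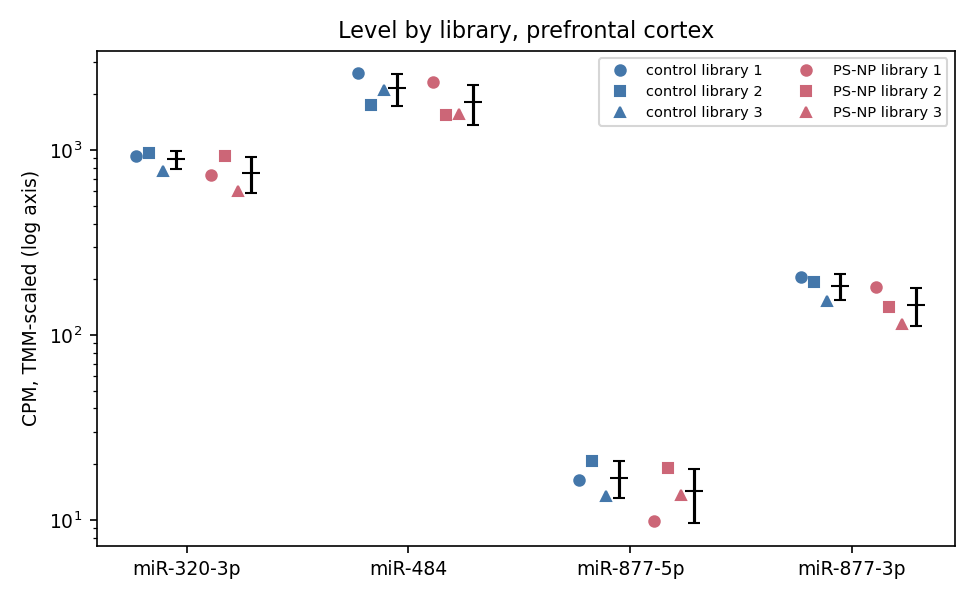
CPM of the 4 sequences in each library on a log axis, with control libraries in blue, PS-NP libraries in red, a marker shape for each library number, and the mean ± SD in black. The order miR-484, miR-320-3p, miR-877-3p, miR-877-5p holds in all 6 libraries, and within each sequence the groups overlap.

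So 0 of the 4 passed the adjusted threshold of 0.05, where 0% of all tested sequences did, and in this fit 0 of the 4 had an unadjusted p under 0.05, where 2.35% did. By direction, 1.41% of all tested sequences were higher and 0.939% lower with PS-NP at that unadjusted p. The groups did not overlap in 0 of the 4, against 9.55% of all tested sequences (5.01% higher and 4.54% lower with PS-NP). The 4 log2 differences lay below 0, with a median of −0.25 beside −0.02 for the 639 sequences, of which 333 lay below 0. A p that misses the threshold does not show equal levels: taken over the 4, the 95% intervals reached from −0.95 to 0.46 on the log2 scale.

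The size of these differences rested on single libraries. Leaving out control library 1 moved miR-484 to −0.08, and leaving out PS-NP library 1 moved it to −0.47. miR-320-3p stood at −0.12 when PS-NP library 3 was left out and at −0.44 when PS-NP library 2 was. With PS-NP library 1 left out, miR-877-3p stood at −0.53 (edgeR, unadjusted p = 0.0498, adjusted p = 0.719) and miR-877-5p at −0.05. miR-877-5p moved further, to −0.53, with PS-NP library 2 left out, and stood at −0.07 with control library 2 left out. All 4 stayed below 0 in each of these fits and none passed the adjusted threshold.

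GC content moved with the differences as well. The 4 sequences are GC-rich, at 54.5% for miR-320-3p, 59.1% for miR-877-3p, 62.5% for miR-877-5p and 63.6% for miR-484, beside a median of 50% over the tested sequences. Across the 639 sequences, which are not independent replicates and share the same libraries, the log2 difference ran against GC content (Spearman's rho −0.467, a description). Of the 176 other tested sequences in the same GC range as the 4, 130 had a log2 difference below 0, with a median of −0.17. With the GC trend of each library removed, the log2 difference was −0.05 (SE 0.26) for miR-484, −0.03 (SE 0.28) for miR-877-5p, −0.19 (SE 0.21) for miR-877-3p and −0.18 (SE 0.18) for miR-320-3p, none past the threshold.

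**Figure D3:**
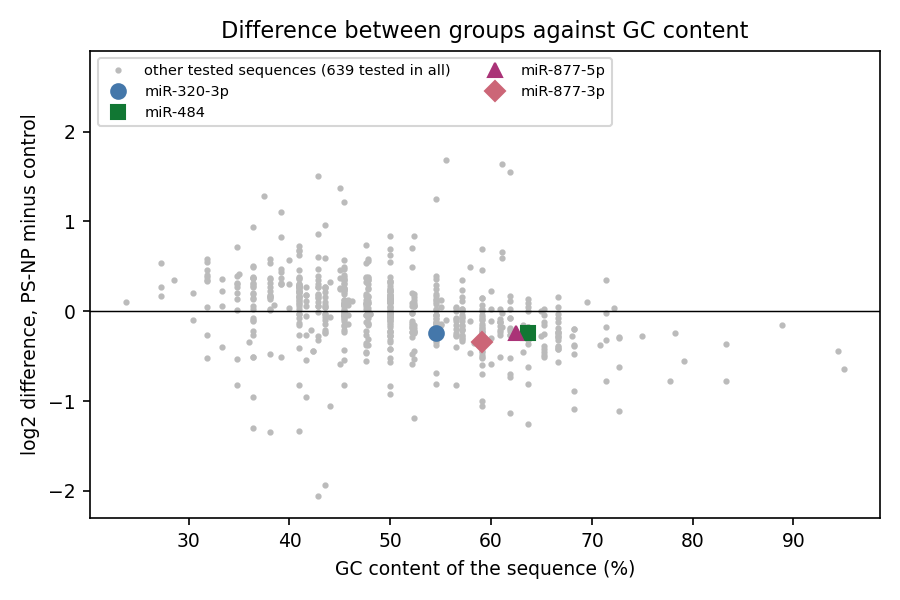
Log2 difference between PS-NP and control (y axis) against the GC content of the sequence in percent (x axis) for the 639 tested sequences, with the 4 described here as large symbols. The 4 lie between 54.5% and 63.6% GC, where 130 of the 176 other points also lie below 0.

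The arms of miR-877 come from 1 hairpin in 1 library, so their ratio needs no scaling. The 5p arm made up 7.35%, 9.75% and 8.11% of miR-877 reads in controls and 5.19%, 12.0% and 10.6% with PS-NP. Treated cortex held both the lowest and the highest share, around all controls. The log2 ratio of 5p to 3p reads, with 1 read added to each, was −3.44 ± 0.23 in controls and −3.37 ± 0.70 with PS-NP (SD, n = 3 each). The difference of 0.08 was smaller than the spread in either group (exact two-sided permutation test, p = 0.9, where 3 against 3 libraries cannot go below 0.1). It turned to −0.02 with control library 1 left out, to −0.17 and −0.08 with PS-NP library 2 or 3 left out, and was 0.48 with PS-NP library 1 left out. The mirtron miR-1224 had the opposite balance, with 5p shares of 71.7%, 77.1% and 75.8% in controls and 73.9%, 83.7% and 83.6% with PS-NP.

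The balance between miR-484 and miR-320-3p varied from library to library rather than by group. There were 2.80, 1.81 and 2.73 reads of miR-484 for each read of miR-320-3p in controls and 3.19, 1.66 and 2.61 with PS-NP. Library 2 of each group had the lowest ratio of its group, and library 1 the highest. The summed markers of choroid plexus, the tissue that makes cerebrospinal fluid, ran in the reverse order of this ratio within each group. miR-204-5p and miR-449a-5p summed to 1761, 5603 and 3248 CPM for the controls and 2048, 7198 and 4265 CPM for treated cortex, with 2 of 2 names listed. Nearly all of this was miR-204-5p, which other brain cells also make, and miR-449a-5p, found in ciliated cells, was listed at 0 in 5 of the 6 libraries. The only value of miR-449a-5p, 0.69 CPM, was in control library 1, which had the lowest sum of the controls. The order is therefore that of miR-204-5p alone. Within each group the order of the libraries in this sum was that of the miR-877 5p share and the reverse of the miR-484 ratio. The part of choroid plexus cells in either ratio was not tested. In these bulk samples fewer cells of a type and less RNA per cell cannot be told apart. The slope of mean-centred log2(CPM + 1) on GC content, per 10 points of GC, was 0.09, 0.15 and −0.07 in control libraries 1 to 3. It was 0.01, −0.11 and −0.06 in PS-NP libraries 1 to 3, and its part in the ratios was not tested.

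**Figure D4:**
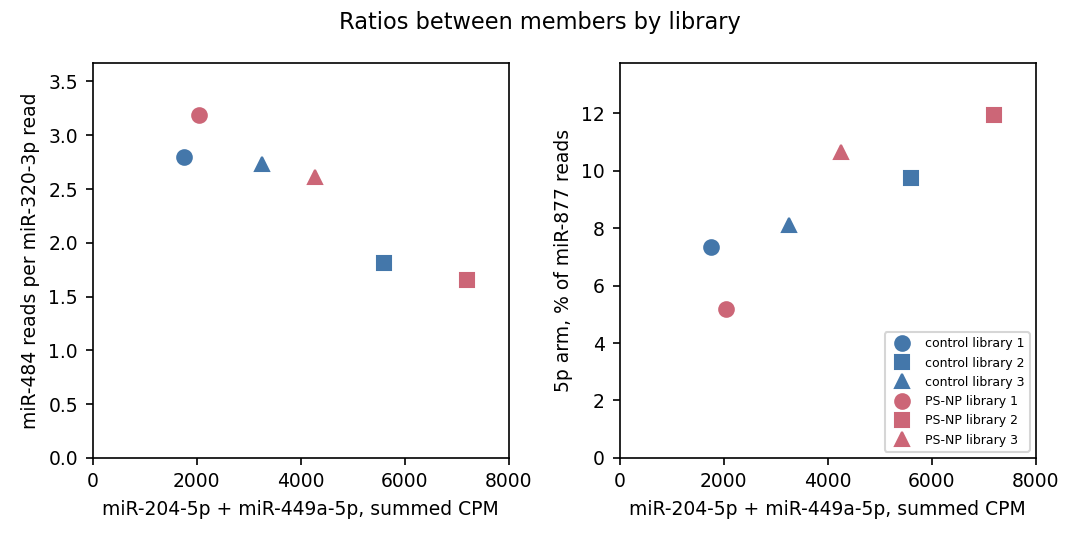
Reads of miR-484 per read of miR-320-3p (left) and the 5p share of miR-877 reads in percent (right) against the summed CPM of miR-204-5p and miR-449a-5p, for the 6 libraries. Library 2 of both groups lies at the right, with the lowest miR-484 ratios (1.81 and 1.66).

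The seeds of miR-484 and miR-877-3p occurred in 0 other sequences of the table, that of miR-320-3p in 3 and that of miR-877-5p in 2. All 5 carry names of human (hsa) or chimpanzee (ptr) miRNAs, and they are printed because they differ from the mouse sequences only near the 3′ end. Capitals mark bases that differ from miR-320-3p or, for miR-877, from the mouse hairpin.
hsa-miR-320b, 20 bases: aaaagctgggttgagagggT
hsa-miR-320b, 22 bases: aaaagctgggttgagagggcAT
hsa-miR-320d, 19 bases: aaaagctgggttgagaggA
ptr-miR-877, 25 bases: gtagaggagatggcgcaggggacaT
ptr-miR-877, 26 bases: gtagaggagatggcgcaggggacaTT
Counted from 1 at the 5′ end, the entries under miR-320 names carry C20T, then G21A with A22T, then G19A, all in the last bases of the read. Those under miR-877 names match the mouse hairpin over the 24 bases of the deposited miR-877-5p and then carry C25T, or C25T with A26T. All the differing bases of the miR-877 entries are T at the 3′ end, as is the last base of miR-877-3p.

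These entries were rare. The 3 entries under miR-320 names summed to 37, 42 and 23 reads in controls and 25, 60 and 45 with PS-NP, which is 0.458% to 0.711% of all reads under miR-320 names. The longer miR-877-5p entries reached at most 7 reads in a library and were not tested. Whether they hold sequencing errors was not tested. Adding these reads to their mouse sequences, an alternative chosen after the data were seen, left the log2 difference at −0.23 for miR-320-3p and −0.28 for miR-877-5p.

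Other miRNAs that bypass a step of the usual route gave no uniform direction. Of the 9 names looked up, 8 were listed and tested. Of these 8, 3 had a log2 difference above 0 and 5 below, with a median of −0.15, and 0 passed the adjusted threshold. GC content was 34.8% to 43.5% in the 3 above 0 and 43.5% to 66.7% in the 5 below. Its part in these directions was not tested. miR-702-3p, looked up as a mirtron, had group means of 22.4 ± 4.50 (control) and 16.8 ± 1.17 CPM (PS-NP), and its log2 difference was −0.42 (SE 0.24). Unlike those of miR-877 and miR-1224, its hairpin (chr5:136991433-136991541) does not share its ends with the intron it overlaps, in a Plod3 transcript (chr5:136991442-136991543). The mirtron arms miR-1224-3p and miR-1224-5p had log2 differences of −0.48 (SE 0.37) and −0.07 (SE 0.20). Among miRNAs cut from H/ACA snoRNAs, guides of RNA modification, miR-1839-5p measured 321.2 ± 31.5 and 388 ± 45.5 CPM, a log2 difference of 0.27 (SE 0.17), and miR-1839-3p had 0.21 (SE 0.19). miR-664-3p and miR-664-5p, of the same kind, had −0.23 (SE 0.18) and −0.27 (SE 0.22). In 1 of the 8, miR-664-3p, the groups did not overlap, at 1215 to 1350 CPM among controls and 857 to 1206 CPM in treated cortex, against the 9.55% of tested sequences given above. miR-451a, the red cell miRNA that needs Drosha but is cut by Ago2 in place of Dicer, had a log2 difference of 0.02 (SE 0.34).

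**Figure D5:**
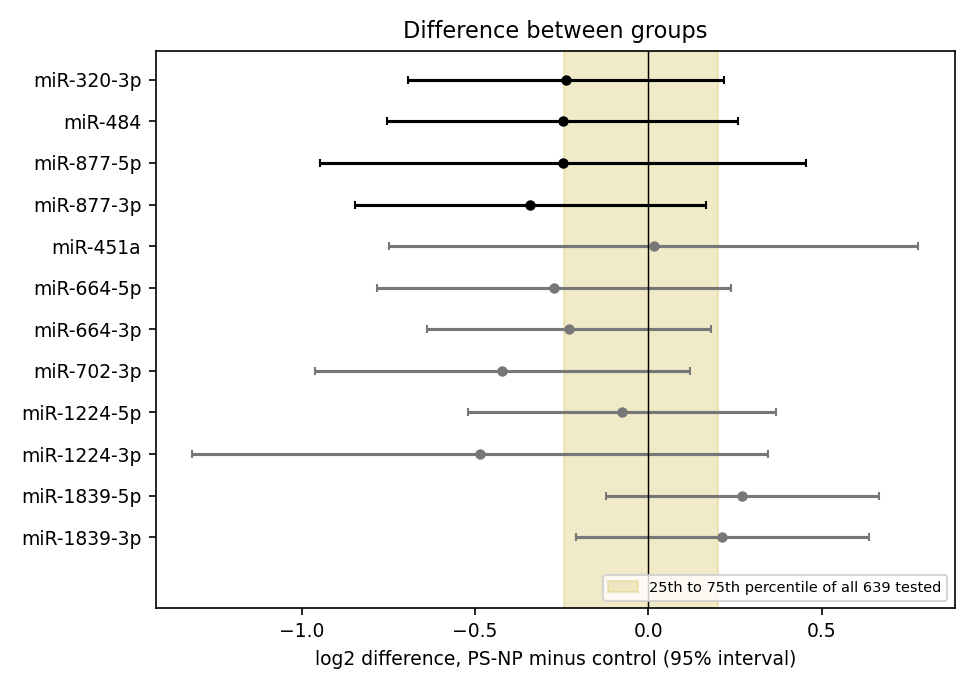
Log2 difference between PS-NP and control with its 95% interval for miR-320-3p, miR-484 and the miR-877 arms (black) and the 8 other miRNAs with an unusual route (grey). The shaded band runs from the 25th to the 75th percentile of the 639 tested sequences, and every interval crosses 0.

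Sequences with the most similar course over the 6 libraries differed between the 4. Likeness was the root mean square (RMS) of the differences in mean-centred log2 CPM, smaller being closer. The closest to miR-484 were miR-151-3p (0.07), the mir-3102 p3 entry (0.09) and miR-342-3p (0.09), and to miR-877-3p they were miR-671-3p (0.05), miR-664-5p (0.09) and miR-1843b-3p (0.09). The closest to miR-320-3p were miR-299a-5p (0.11), miR-1981-5p (0.12) and miR-485-5p (0.13), and to miR-877-5p they were miR-7224-3p (0.11), miR-667-5p (0.11) and miR-218-2-3p (0.13). The median over all tested sequences was 0.38 to 0.43, depending on the member. Between the arms of miR-877 the value was 0.41, which ranked 315 among the sequences closest to miR-877-3p, and miR-484 and miR-320-3p stood at 0.35. All values share the same libraries, scaling and GC trends.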

How the data were processed

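Small RNA was sequenced from total RNA with the TruSeq Small RNA kit on an Illumina HiSeq instrument, and reads of adapters, rRNA, tRNA, snRNA, snoRNA and repeats were removed with ACGT101-miR, per the labels' protocols. No source used here gives the genome build, the miRBase release or the mapping settings. Per the file headers, the deposited table holds raw values, estimated counts per entry, and norm values, a normalized signal in which the authors multiplied each library by its own factor. Norm values served only as an alternative scaling. Another 3 lines were not analysed here. Sequences listed once had 3981 values above 0 that were whole within 1e-06, of which 256 equalled 5 and only 18 fell below it. A listed 0 may therefore hide a small number of reads, and no limit was derived from zeros.

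Entries of the same sequence were added up (1115 entries, 1013 sequences) and rounded. Those with 10 reads or more in 3 or more libraries were tested with edgeR 4.0.16 (quasi-likelihood, TMM, group as the only term) and Benjamini-Hochberg adjustment over 639. The design had been written for counts. The files hold estimated counts, for which the same test was used. SE and 95% intervals come from that fit. The fit was run on simulated counts with known changes, much larger than the differences of the 4. Removal of the GC trend was run on simulated counts with an added trend. The other steps and the intervals were not tested on simulated data. DESeq2 1.42.0, limma 3.58.1 and the other alternatives are in the closing section. Hairpin and arm sequences are from RefSeq (GRCm38.p6), which gave 3 of the 4 mature arms, and gene positions from GENCODE M21. The members and lists were chosen with earlier results of these data known. Named sequences are the 4 members, entries of the same number or seed, the 3 closest in course to each, and 9 other non-canonical names. Marker miRNAs were looked up by name, and the muscle list (3 of 3 names listed) summed to 103.8 to 187.9 CPM in controls and 130.6 to 177.2 CPM with PS-NP. The count of other sequences in the same GC range and the setting of ratios beside miR-204-5p were added after the values were seen.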

Additional observations from a re-analysis of the deposited data

How the results depend on the processing

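Under the 17 alternatives to the edgeR fit, the 4 log2 differences stayed below 0 and adjusted p ran from 0.719 to 0.999 for miR-484 and miR-877-3p, 0.748 to 0.999 for miR-320-3p and 0.770 to 0.999 for miR-877-5p. Leaving out each library in turn gave −0.44 to −0.12 for miR-320-3p, −0.47 to −0.08 for miR-484, −0.53 to −0.05 for miR-877-5p and −0.53 to −0.22 for miR-877-3p. Each fit called 0 sequences, DESeq2 and limma-voom included. Those 2 had 15 and 17 sequences with an unadjusted p under 0.05, the reported fit had 15, and the alternatives ranged from 6 to 38. The miR-877 arm difference ran from −0.17 to 0.48 over the left-out libraries and was 0.08 with 0 or 5 reads added. Whether the replicate numbers pair the libraries was not settled. Deviations of same-numbered libraries correlated at 0.43, 0.15 and −0.17, and control library 2 correlated best with PS-NP library 3 (0.44). With the replicate block, the log2 differences were −0.25 (miR-320-3p, SE 0.13, and miR-484, SE 0.12), −0.27 (miR-877-5p, SE 0.25) and −0.35 (miR-877-3p, SE 0.14). These SE were smaller than those of the reported fit. The arm difference was 0.08, and 0 sequences were called, 32 at an unadjusted p under 0.05. miR-877-3p was among these 32 (edgeR, unadjusted p = 0.0469, adjusted p = 0.748) and among the 38 of the fit that left out PS-NP library 1 (unadjusted p = 0.0498, adjusted p = 0.719), and no other alternative put any of the 4 under 0.05. With the block and the GC trend removed they were −0.19, −0.05, −0.08 and −0.22. miR-877-5p had the fewest reads of the 4, 66 to 172 per library, and the largest SE, and the part of counting error in it was not tested.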
